A study of Caenorhabditis elegans with 12 samples.

Results

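The muscle myosins, paramyosin and tropomyosin of Caenorhabditis elegans were followed over 2 strains with temperature-sensitive fer-1 alleles and wild type. The 9 genes were taken by name from the array's gene symbols, with earlier results of these data known. They are the myosin heavy chain genes unc-54, myo-1, myo-2 and myo-3, the light chain genes mlc-1, mlc-2 and mlc-3, the paramyosin gene unc-15 and the tropomyosin gene lev-11. They are 9 of 18217 genes with a symbol, and 22 of 22548 probe sets carry their symbols. A probe set is a group of short probes that are summarised as 1 value, and some match several transcripts or genes.

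The groups were strain BA1 with the genotype fer-1 (hc1ts), strain BA24 with fer-1 (hc24ts) and the wild type strain N2, called hc1, hc24 and wild type here, with 4 arrays each. Larvae synchronised with hypochlorite were raised at 25 °C to young adults in all 3 groups, and total RNA came from whole worms, 1000 sorted adults per sample. Each allele was thus represented by 1 strain. The submitters kept 4 of 6 preparations per genotype for their correlation with each other, so the spread between arrays understates that between preparations. The fer-1 product belongs to the ferlins, membrane proteins that include dysferlin of human muscle, and is known for its role in nematode sperm maturation. The comparisons ask how muscle transcripts differed in each mutant and between the alleles.

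In nematode muscle, myosin assembles into thick filaments around a core of paramyosin, and these pull on thin filaments of actin, tropomyosin and troponin. Body wall muscle uses a pair of heavy chains, myosin A (myo-3) in the middle of the filament and myosin B (unc-54) along its arms, whereas pharyngeal muscle uses myosins C (myo-2) and D (myo-1). Each heavy chain carries a regulatory light chain (mlc-1 or mlc-2) and an essential light chain (mlc-3), and tropomyosin covers the myosin sites on actin.

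Values are log2 levels after background correction and normalization by the authors, so that a step of 1 is a doubling of signal. A probe set was tested where its log2 level was at least 4 in at least 4 of 12 arrays, and 11833 probe sets passed, among them 19 of the 22. A change was called at an adjusted p under 0.05 in limma. 8 of the 9 genes could be tested, and myo-2 could not. The fer-1 probe set itself lay between 1.46 and 1.48 in all 12 arrays, so it could not check the genotype labels. hc1 replicate 2 stood apart: its mean log2 level over 8 tested sperm markers was 8.76, against 5.04, 5.16 and 5.94 in the other hc1 arrays, 9.01 to 9.25 in hc24 and 5.27 to 6.50 in wild type. Array medians were 4.34 to 4.36 in hc1, 4.33 to 4.37 in hc24 and 4.53 to 4.66 in wild type.

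Most muscle filament transcripts were lower in hc1 than in wild type and in hc24, whereas hc24 showed fewer calls against wild type and a higher level of unc-54. Of the 8 tested genes 7 fell in hc1 against wild type and 0 rose, where 69.2% of all tested probe sets were called, 25.9% as lower and 43.3% as higher. The median log2 change of the 8 genes was -0.82, against 0.14 over all tested probe sets. In hc24 against wild type 1 of 8 rose and 3 fell, where 59.4% of all were called, 37.7% as higher and 21.7% as lower, and the median change was -0.08 against 0.12 over all. This split depended on scaling: with arrays centred on their medians 3 rose (unc-54, myo-1 and unc-15) and 0 fell, and with cyclic loess 1 rose and 4 fell. Between the alleles 7 of 8 were lower in hc1 than in hc24, where 30.7% were called and 12.2% as lower, with a median of -0.82 against 0.07. The 2 comparisons with wild type share the same 4 wild type arrays. In RNA of whole worms, a smaller share of muscle in the sample and less RNA per muscle cell cannot be told apart.

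**Figure D1:**
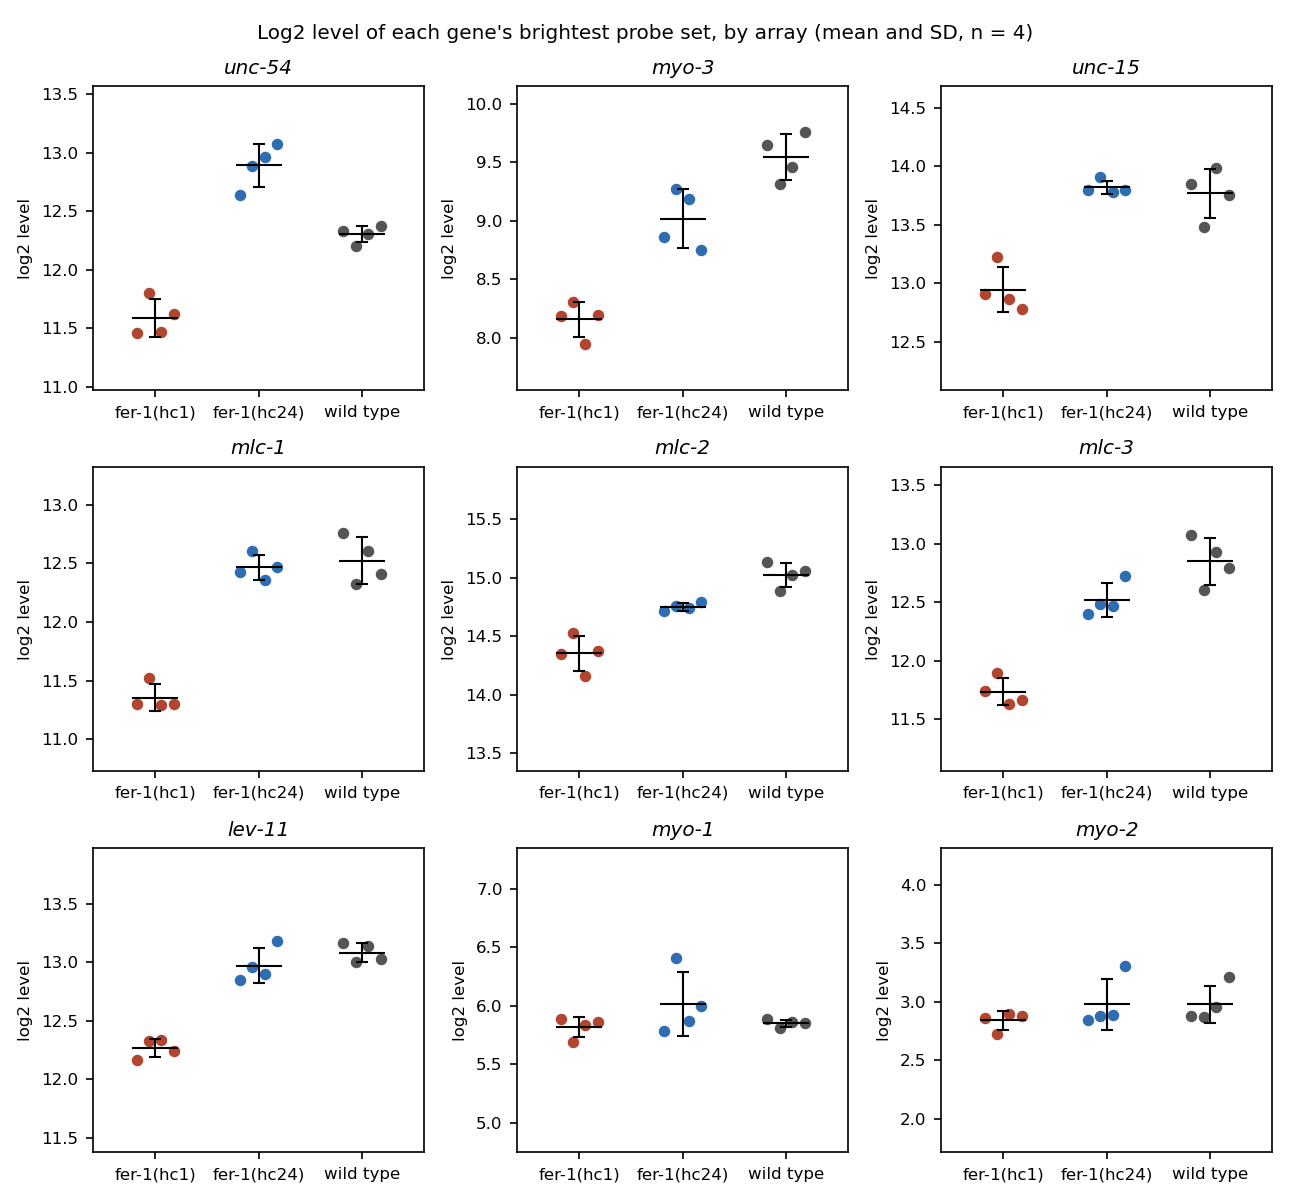
Log2 level on each of 12 arrays for the brightest probe set of each gene, with the mean and SD of 4 arrays per group, for hc1, hc24 and wild type from left to right. For unc-54 the 4 hc1 arrays lie between 11.46 and 11.81, below wild type, and the 4 hc24 arrays between 12.64 and 13.07, above it.

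The body wall heavy chain gene unc-54 (F11C3.3, chromosome I) was measured by 1 probe set. Its log2 levels were 11.46, 11.81, 11.47 and 11.62 in hc1, 12.64, 12.89, 12.97 and 13.07 in hc24, and 12.33, 12.21, 12.31 and 12.38 in wild type. The 3 groups did not overlap, with hc1 lowest, wild type between and hc24 highest. Over all tested probe sets 23.2% were lower without overlap in hc1 against wild type, 12.9% in hc1 against hc24 and 19.5% in hc24 against wild type, and 35.7% were higher without overlap in hc24 against wild type. Means were 11.59 ± 0.16 in hc1, 12.89 ± 0.18 in hc24 and 12.31 ± 0.07 in wild type (SD, n = 4 each). unc-54 fell 1.64-fold in hc1, a log2 change of -0.72 (95% interval -0.94 to -0.50, limma adjusted p = 5.06e-05). In hc24 it rose 1.50-fold, a log2 change of 0.59 (95% interval 0.37 to 0.81, limma adjusted p = 0.000337). The alleles themselves differed 2.47-fold, hc1 minus hc24 being -1.30 (limma adjusted p = 1.79e-06). Among the 8 tested genes unc-54 was the only one called higher in either mutant on the deposited scale. In hc24, 88.6% of all tested probe sets had a signed log2 change below that of unc-54, falls included.

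The other body wall heavy chain gene, myo-3 (K12F2.1, chromosome V), was lower in both alleles. Its single probe set gave 8.19, 8.30, 7.94 and 8.19 in hc1, 8.86, 9.27, 9.18 and 8.75 in hc24, and 9.64, 9.31, 9.46 and 9.76 in wild type. Both mutants lay below wild type on every array, and hc1 lay below hc24. Means were 8.16 ± 0.15 in hc1, 9.01 ± 0.25 in hc24 and 9.54 ± 0.20 in wild type (SD, n = 4 each). myo-3 fell 2.61-fold in hc1, a log2 change of -1.38 (95% interval -1.67 to -1.10, limma adjusted p = 1.99e-06), and 6.68% of tested probe sets had a more negative change. In hc24 it fell 1.44-fold, a log2 change of -0.53 (95% interval -0.82 to -0.24, limma adjusted p = 0.00463). With each array centred on its median the hc24 change was -0.28 and was no longer called (limma adjusted p = 0.0677). hc1 was 1.81-fold lower than hc24 (log2 difference -0.86, limma adjusted p = 0.000386).

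The body wall heavy chains therefore changed by unequal amounts, and this was tested on the difference of their log2 values within each array, which does not depend on an additive scaling of the array. unc-54 minus myo-3 was 3.27, 3.50, 3.53 and 3.42 in hc1, 3.78, 3.62, 3.78 and 4.33 in hc24, and 2.69, 2.90, 2.85 and 2.62 in wild type. The values of the groups did not overlap. Relative to myo-3, unc-54 was higher by 0.67 in hc1 against wild type and by 1.11 in hc24 against wild type, and hc1 minus hc24 was -0.45. Each of these 3 comparisons had an exact two-sided permutation p of 0.0286, the smallest that 4 arrays against 4 allow, and an adjusted p of 0.0490 over the 12 such tests made. Every pair test at that smallest p had the same adjusted p, so these tests pass 0.05 together or not at all. The pairs were chosen with earlier results of these data known. Differences of this kind are unequal changes of signal and are not a ratio of transcripts, since probe sets differ in affinity.

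The pharyngeal heavy chains were weakly measured. myo-1 (R06C7.10, chromosome I), the gene of myosin D, gave 5.88, 5.69, 5.84 and 5.86 in hc1, 5.79, 6.41, 5.87 and 6.00 in hc24, and 5.89, 5.81, 5.86 and 5.85 in wild type on its brighter probe set. The groups overlapped in all 3 comparisons. Its log2 change was -0.03 in hc1 (95% interval -0.28 to 0.21, limma adjusted p = 0.800) and 0.16 in hc24 (95% interval -0.08 to 0.41, limma adjusted p = 0.224), and hc1 minus hc24 was -0.20 (95% interval -0.44 to 0.05, limma adjusted p = 0.205). With arrays centred on their medians it was called higher in hc24, by 0.42 (limma adjusted p = 0.00403). The dimmer myo-1 probe set lay between 3.27 and 4.23 and was not tested.

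The only probe set of myo-2 (T18D3.4, chromosome X), the gene of myosin C and a classical marker of pharyngeal muscle, was under log2 4 on every array. It gave 2.86, 2.73, 2.90 and 2.88 in hc1, 2.85, 2.88, 2.89 and 3.30 in hc24, and 2.88, 2.87, 2.96 and 3.21 in wild type. These values lie at the floor and carry no order. The difference of myo-2 and myo-1 within arrays was among the 12 tests made, but with myo-2 at the floor it says nothing of myo-2. Of the 5 tested genes of a list of 6 other pharyngeal muscle markers, 4 fell and 0 rose in hc1, and 3 fell and 1 rose in hc24. Over all tested probe sets 25.9% were called lower and 43.3% higher in hc1, and 21.7% and 37.7% in hc24. The riser was tni-4, a troponin I (7.76 ± 0.12 in hc24 and 7.54 ± 0.03 in wild type, SD, n = 4 each, limma adjusted p = 0.0261). It was not called higher with cyclic loess.

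Among the light chains, mlc-1 and mlc-2 are neighbours on chromosome X with 2 genes between them, 0 of which code for protein. 1 probe set carries both symbols, and another is shared by mlc-1 and the noncoding gene C36E6.11. Both probe sets of mlc-2 alone have names ending in x_at, which marks probes that may also hybridise to other transcripts, so the values of this pair of paralogs are not fully separable. A name ending in s_at marks a probe set that matches several transcripts. The only tested probe sets of unc-54, myo-3 and myo-1 are of this kind.

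mlc-1 (C36E6.3), a regulatory light chain gene, fell in hc1. Its own probe set gave 11.30, 11.53, 11.29 and 11.30 in hc1, 12.42, 12.61, 12.36 and 12.47 in hc24, and 12.76, 12.32, 12.61 and 12.41 in wild type. All 4 hc1 arrays lay below the other 8, whereas hc24 and wild type overlapped. The fall in hc1 was 2.26-fold, a log2 change of -1.17 (95% interval -1.39 to -0.96, limma adjusted p = 6.80e-07). The change in hc24 was -0.06 (95% interval -0.28 to 0.16, limma adjusted p = 0.627). hc1 was 2.16-fold lower than hc24 (log2 difference -1.11, limma adjusted p = 5.54e-06). The probe set shared with C36E6.11 changed by -1.02 in hc1 (limma adjusted p = 1.32e-05) and by -0.03 in hc24 (limma adjusted p = 0.870).

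mlc-2 (C36E6.5), the other regulatory light chain gene, was lower in both alleles. Its brighter probe set gave 14.35, 14.52, 14.16 and 14.38 in hc1, 14.71, 14.75, 14.74 and 14.79 in hc24, and 15.13, 14.88, 15.02 and 15.06 in wild type. The groups did not overlap, in the order hc1, hc24, wild type from low to high. mlc-2 fell 1.59-fold in hc1 (log2 change -0.67, 95% interval -0.85 to -0.50, limma adjusted p = 1.27e-05) and 1.21-fold in hc24 (log2 change -0.27, 95% interval -0.45 to -0.10, limma adjusted p = 0.0107). With arrays centred on their medians the hc24 change was -0.02 and was not called (limma adjusted p = 0.791). hc1 was 1.32-fold lower than hc24 (log2 difference -0.40, limma adjusted p = 0.00254). The dimmer mlc-2 probe set changed by -0.84 in hc1 (limma adjusted p = 1.99e-05) and by -0.48 in hc24 (limma adjusted p = 0.00200). The probe set shared with mlc-1 changed by -0.96 in hc1 (limma adjusted p = 1.36e-06) and by -0.42 in hc24 (limma adjusted p = 0.00141).

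mlc-3 (F09F7.2, chromosome III), the essential light chain gene, had 2 probe sets. The brighter gave 11.74, 11.89, 11.64 and 11.67 in hc1, 12.40, 12.48, 12.47 and 12.73 in hc24, and 13.08, 12.60, 12.93 and 12.79 in wild type. hc1 lay below all other arrays, and 1 hc24 array lay above the lowest wild type array. mlc-3 fell 2.17-fold in hc1 (log2 change -1.11, 95% interval -1.35 to -0.88, limma adjusted p = 1.95e-06) and 1.26-fold in hc24 (log2 change -0.33, 95% interval -0.56 to -0.10, limma adjusted p = 0.0181). The hc24 call rested on single arrays and on scaling: it was lost without wild type replicate 3 (limma adjusted p = 0.0579), without hc24 replicate 1 (limma adjusted p = 0.0534) and with median centring (log2 change -0.08, limma adjusted p = 0.448). The other mlc-3 probe set changed by -1.16 in hc1 (limma adjusted p = 6.40e-07) and by -0.15 in hc24 (limma adjusted p = 0.193). hc1 was 1.72-fold lower than hc24 on the brighter probe set (log2 difference -0.78, limma adjusted p = 0.000146) and 2.00-fold lower on the other (log2 difference -1.003, limma adjusted p = 1.08e-05).

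On the brightest probe set of each gene, the essential light chain gene mlc-3 changed more in hc1 than mlc-2 did. The contrast was not tested for the other regulatory light chain gene, mlc-1, whose change in hc1 was -1.17 beside -1.11 for mlc-3. Both probe sets of mlc-2 are of the x_at kind and may also detect mlc-1. The dimmer one changed by -0.84 in hc1, less far from mlc-3 than the brighter one. In hc24 it changed by -0.48, beside -0.33 for mlc-3. A difference between probe sets in how they record a change was not tested. mlc-3 minus mlc-2 was -2.60, -2.63, -2.52 and -2.71 in hc1, -2.31, -2.27, -2.27 and -2.06 in hc24, and -2.05, -2.28, -2.09 and -2.27 in wild type. The 4 hc1 values lay below the other 8, and hc24 and wild type overlapped. The difference was -0.44 for hc1 against wild type and -0.39 for hc1 against hc24 (exact two-sided permutation p = 0.0286 and adjusted p = 0.0490 for each). For hc24 against wild type it was -0.06 (exact permutation adjusted p = 0.499).

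Paramyosin, the core protein of the thick filament, is encoded by unc-15 (F07A5.7, chromosome I), which had 3 probe sets. The brightest gave 12.91, 13.22, 12.87 and 12.78 in hc1, 13.80, 13.91, 13.78 and 13.80 in hc24, and 13.85, 13.49, 13.99 and 13.75 in wild type. hc1 lay below all other arrays, and hc24 lay within the wild type range. unc-15 fell 1.77-fold in hc1 (log2 change -0.82, 95% interval -1.07 to -0.58, limma adjusted p = 4.05e-05). Its change in hc24 was 0.05 (95% interval -0.19 to 0.30, limma adjusted p = 0.710), and with arrays centred on their medians it was called higher, by 0.30 (limma adjusted p = 0.0160). hc1 was 1.83-fold lower than hc24 (log2 difference -0.88, limma adjusted p = 9.57e-05). The other 2 probe sets changed by -0.82 and -0.98 in hc1, and by 0.07 and -0.07 in hc24 with no call in hc24 (limma adjusted p = 0.566 and 0.707).

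Set against paramyosin, myosin B changed unequally in hc24 but not detectably in hc1. unc-54 minus unc-15 was -1.44, -1.42, -1.40 and -1.17 in hc1, -1.15, -1.02, -0.82 and -0.72 in hc24, and -1.52, -1.28, -1.68 and -1.38 in wild type. The hc24 values lay above all others, and hc1 and wild type overlapped. The difference was 0.54 for hc24 against wild type and -0.43 for hc1 against hc24 (exact two-sided permutation p = 0.0286 and adjusted p = 0.0490 for each). For hc1 against wild type it was 0.11 (exact permutation p = 0.4, adjusted p = 0.499).

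**Figure D2:**
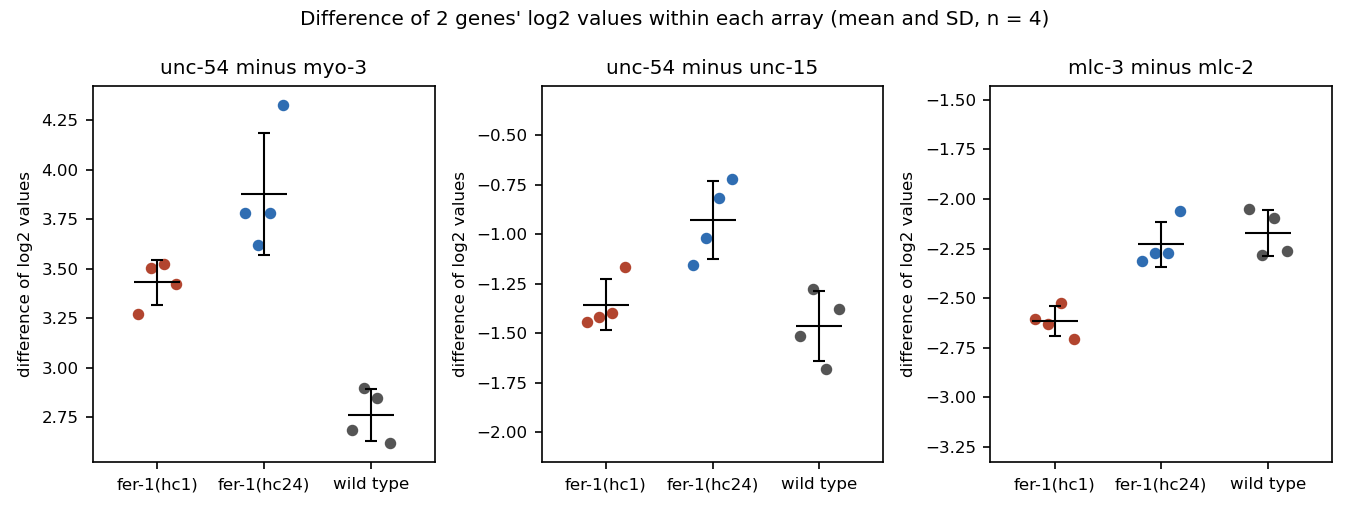
Difference of 2 genes' log2 levels within each array (vertical axis) for hc1, hc24 and wild type, with the mean and SD of 4 arrays. unc-54 minus myo-3 lies between 3.27 and 4.33 in the mutants and between 2.62 and 2.90 in wild type, and mlc-3 minus mlc-2 is lowest in hc1.

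Tropomyosin is encoded by lev-11 (Y105E8B.1, chromosome I), a gene with 19 annotated transcripts and 7 probe sets, of which 6 were tested. The brightest gave 12.17, 12.33, 12.34 and 12.24 in hc1, 12.85, 12.96, 12.90 and 13.19 in hc24, and 13.16, 13.003, 13.14 and 13.03 in wild type. hc1 lay below all other arrays, while hc24 and wild type overlapped. lev-11 fell 1.76-fold in hc1 (log2 change -0.81, 95% interval -0.99 to -0.64, limma adjusted p = 2.48e-06). In hc24 the change was -0.11 (95% interval -0.28 to 0.06, limma adjusted p = 0.254). That change was called as lower under cyclic loess (-0.27, limma adjusted p = 0.0199), as the mean of the gene's probe sets (-0.17, limma adjusted p = 0.0454) and without hc24 replicate 5 (-0.18, limma adjusted p = 0.0435). hc1 was 1.63-fold lower than hc24 (log2 difference -0.70, limma adjusted p = 3.66e-05).

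The tropomyosin probe sets spanned a wide range of signal. In hc1 all 6 tested probe sets were called lower, with log2 changes of -0.81, -0.90, -0.89, -0.78, -1.17 and -0.42 from the brightest to the dimmest. In hc24 the same 6 changed by -0.11, -0.19, -0.19, -0.21, -0.38 and -0.12, and 1 of 6 was called, as lower, at a change of -0.21 (limma adjusted p = 0.0389). The probe set with a change of -1.17 in hc1 also had the widest spread, with an SD of 0.47 in hc1, 0.31 in hc24 and 0.35 in wild type (n = 4 each). The seventh lay between 2.09 and 2.18 in all 12 arrays and was not tested. Which tropomyosin isoforms each probe set detects was not examined here, and several of these probe sets have names ending in x_at or s_at.

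**Figure D3:**
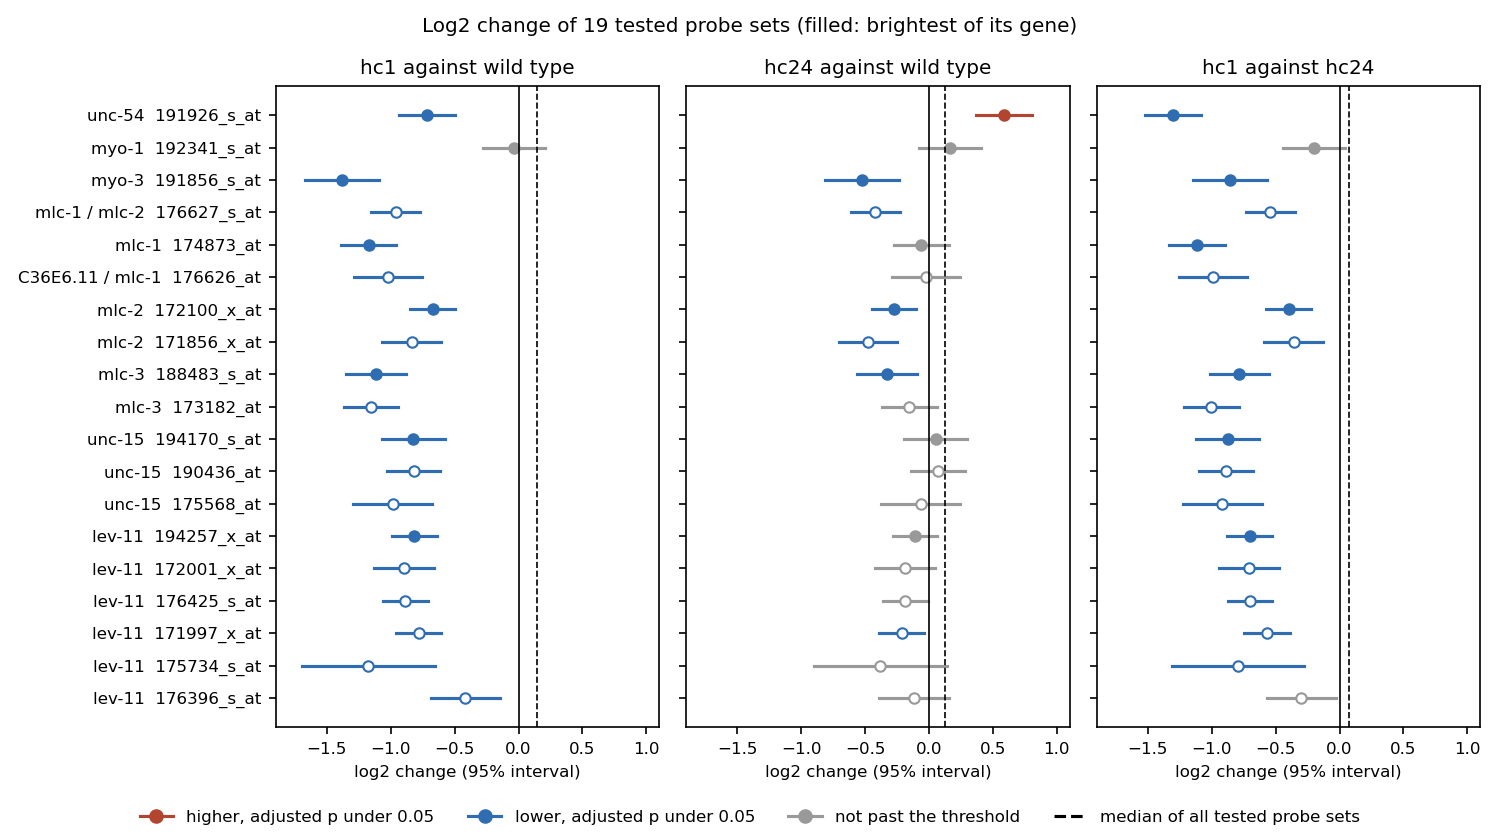
Log2 change of each tested probe set of the 8 tested genes (points, with 95% intervals from limma) for hc1 against wild type, hc24 against wild type and hc1 against hc24. In hc1 against wild type 18 of 19 probe sets were called lower, with changes from -1.38 to -0.42, and the one not called was that of myo-1 at -0.03. Over all tested probe sets 25.9% were called lower in that comparison.

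Counted over probe sets, 18 of 19 were lower in hc1 than in wild type and none of these 18 overlapped with wild type, beside the 23.2% of all tested probe sets given above. In hc24 6 of 19 were called lower and 1 higher, with 12 not called, beside 21.7% lower and 37.7% higher over all tested probe sets. In hc1 against hc24 17 of 19 were called lower, beside 12.2% over all. Different probe sets of a gene share the RNA of the same arrays and are not independent.

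The 7 genes called lower in hc1 were called lower under each scaling of the arrays that was tried. The median change of all tested probe sets moved to 0.40 in hc1 and 0.38 in hc24 with arrays centred on their medians, and to -0.03 and -0.0038 with cyclic loess. Of all called probe sets in hc1, 62.5% were higher on the deposited scale, 76.5% with centring and 44% with cyclic loess, and in hc24 63.5%, 80.4% and 45.5%. For unc-54 the change in hc1 was -0.46 with centring and -0.93 with cyclic loess, and for myo-3 -1.13 and -1.57, all called lower. In hc24 the rise of unc-54 was 0.84 with centring (limma adjusted p = 9.75e-06) and 0.43 with cyclic loess (limma adjusted p = 0.00429), called in both.

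Single arrays leaned the same way over many of the genes. Wild type replicate 4 gave the lowest wild type value for 19 of 19 tested probe sets, where it was lowest for 35.1% of all tested probe sets. hc1 replicate 2 gave the highest hc1 value for 13 of 19, against 19.2% of all, and hc24 replicate 1 the lowest hc24 value for 12 of 19, against 20.7% of all. Without hc1 replicate 2 the log2 changes in hc1 against wild type were -0.79 for unc-54, -1.43 for myo-3, -1.23 for mlc-1, -0.73 for mlc-2, -1.17 for mlc-3, -0.92 for unc-15 and -0.83 for lev-11, each called lower. Without any one of the 12 arrays, 7 of 8 genes were still called in hc1 against wild type and in hc1 against hc24, and between 3 and 5 in hc24 against wild type.

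Genes with the most similar profiles were sought among 8735 other tested genes, by the root mean square difference of log2 profiles over the 12 arrays, each centred on its mean. For unc-54 the nearest was F07A11.5, at 0.105, whose change was -0.75 in hc1 and 0.56 in hc24, followed by K03B8.8 at 0.136 and VF13D12L.3 at 0.138. The nearest other filament gene to unc-54 was unc-15 at 0.273, and 128 genes were nearer than that. For myo-3 the nearest were ifo-1 (0.163), ifd-1 (0.166) and T04B2.3 (0.170), and 35 genes were nearer than mlc-3 (0.234).

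The remaining genes had close matches too. mlc-1 was nearest to dim-1 (0.1002), which encodes a muscle protein, gsnl-1 (0.108), a gelsolin-like gene, and ifb-2 (0.110), an intestinal intermediate filament gene. mlc-3 was nearest to R07E3.4 (0.0958), hsp-25 (0.103) and the troponin I gene tni-3 (0.103). mlc-2 was nearest to hgo-1 (0.0741), dct-6 (0.0777) and F09B12.3 (0.0924), and lev-11 to gta-1 (0.0693), rpl-23A.1 (0.0840) and Y43F8B.1 (0.0885). unc-15 was nearest to lep-5 (0.126), the calsequestrin gene csq-1 (0.139) and haf-4 (0.140). myo-1 was nearest to col-173 (0.0974), gob-1 (0.1002) and H12D21.10 (0.117), with 4777 genes nearer than any of the other 7 filament genes.

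Partner genes of the same machinery were counted from lists chosen with earlier results of these data known. Over all tested probe sets 25.9% were called lower and 43.3% higher in hc1, with a median log2 change of 0.14. In hc24 21.7% were called lower and 37.7% higher, with a median of 0.12. These shares stand beside the counts of each partner list below. Of 19 tested thin filament entries (actins, troponins, actin regulators) 12 fell and 0 rose in hc1, with a median log2 change of -0.88. In hc24 8 fell and 1 rose, with a median of -0.26, and the riser was tni-4, the pharyngeal marker given above. Scaling moved the rises in this list: with median centring 3 rose in hc1 and 2 in hc24, and with cyclic loess 0 rose in either. tnt-3, a troponin T gene, fell 8.81-fold in hc1 and 8.01-fold in hc24 (5.03 ± 0.24 in hc1, 5.17 ± 0.04 in hc24 and 8.17 ± 0.16 in wild type, SD, n = 4 each). tni-1, a troponin I gene, fell 5.29-fold in hc1 and 3.89-fold in hc24. unc-87, an actin-binding muscle protein, was 1.71-fold lower in hc1 than in hc24 (limma adjusted p = 0.000116), and the calponin-related gene cpn-3 was 1.87-fold lower (limma adjusted p = 1.77e-05). cpn-2, also calponin-related, was 1.31-fold higher in hc1 than in hc24 (limma adjusted p = 0.0471).

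Of 6 tested genes for proteins that bind or assemble thick filaments, 5 fell in hc1 (median -1.02) and 4 in hc24 (median -0.50), and 0 rose, except that 1 rose in hc1 with median centring. unc-82, a kinase needed for thick filament organisation, fell 2.04-fold in each mutant (limma adjusted p = 4.62e-07 in hc1 and 5.14e-07 in hc24). lim-9, a LIM domain protein of the muscle attachment and M-line, fell 2.41-fold in hc1 and 1.47-fold in hc24. unc-89, the giant M-line protein obscurin, was 2.09-fold lower in hc1 than in hc24 (limma adjusted p = 0.000525). The myosin chaperone gene unc-45 was 1.20-fold higher in hc1 than in hc24 (limma adjusted p = 0.0117).

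**Figure D4:**
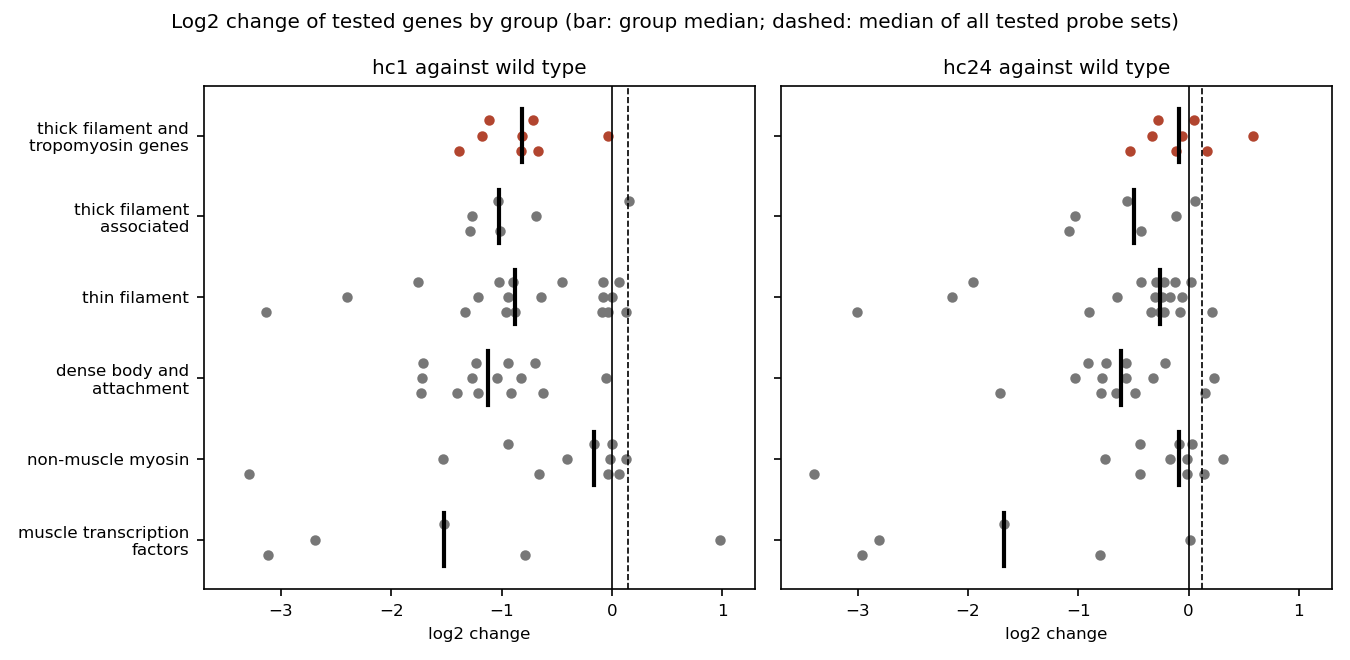
Log2 changes of the tested genes of each list for hc1 and hc24 against wild type, 1 point per gene, with list medians. The 8 tested filament genes have medians of -0.82 in hc1 and -0.08 in hc24, beside -1.13 in hc1 and -0.61 in hc24 for the dense body list and -0.88 in hc1 and -0.26 in hc24 for the thin filament list.

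Genes of the dense bodies, which anchor thin filaments to the membrane, and of the attached matrix fell in 13 of 14 tested cases in hc1 (median -1.13) and in 10 of 14 in hc24 (median -0.61), and 0 rose. tln-1, talin, fell 3.29-fold in hc1 and 1.58-fold in hc24, and pat-2, an alpha integrin, 3.28-fold in hc1 and 1.88-fold in hc24. deb-1, vinculin, fell 2.35-fold in hc1 and 2.05-fold in hc24, and uig-1, an exchange factor of the dense body, 2.31-fold in hc1 and 3.26-fold in hc24. unc-52, perlecan, was 2.83-fold lower in hc1 than in hc24 (limma adjusted p = 9.24e-07). Of 11 nonmuscle and unconventional myosin genes 5 fell in hc1 (median -0.17) and 4 in hc24 (median -0.09), and 0 rose, but with median centring 5 rose in hc1 and 5 in hc24. hum-6, an unconventional myosin, lay under log2 4 in both mutants (means 2.76 in hc1 and 2.65 in hc24, against 6.05 in wild type) and was at least 4.13-fold lower in each, counting the mutants at 4. hum-5, a class I myosin, fell 1.92-fold in hc1 and 1.36-fold in hc24. hum-8, another unconventional myosin gene, was 1.46-fold lower in hc1 than in hc24 (limma adjusted p = 0.000504). The nonmuscle genes nmy-1, nmy-2 and mlc-4 were chosen after their values were seen. nmy-1, a nonmuscle heavy chain, fell 1.58-fold in hc1 (limma adjusted p = 2.35e-05) and 1.35-fold in hc24 (limma adjusted p = 0.000835). nmy-2, the other nonmuscle heavy chain, changed by 0.13 in hc1 and -0.01 in hc24, and the light chain gene mlc-4 by -0.02 in hc1 and -0.16 in hc24, with no call. Of 5 tested muscle transcription factors 4 fell in each mutant, and 1 rose in hc1 and 0 in hc24. The riser was sem-2, a Sox factor of the sex myoblasts, 1.97-fold higher in hc1 than in wild type (limma adjusted p = 0.00228) and 1.95-fold higher in hc1 than in hc24 (limma adjusted p = 0.00703). Among those that fell were pha-4, known for its role in forming the pharynx, 6.47-fold in hc1 and 6.997-fold in hc24, and unc-120, a muscle SRF-type factor, 8.66-fold in hc1 and 7.79-fold in hc24 (mean levels 5.69 ± 0.13 in hc1, 5.84 ± 0.17 in hc24 and 8.80 ± 0.16 in wild type, SD, n = 4 each).

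Markers of other cell types moved with these groups. Over 6 tested body wall muscle markers the mean log2 level was 10.4 to 10.7 in hc1 and 11.1 to 11.3 in hc24. In wild type it was 11.64 to 11.98, and unc-22 was at background in every array. In hc1 6 fell and 0 rose. In hc24 2 fell and 0 rose, with 4 not called and a median log2 change of -0.17. The hc24 change of unc-120 was -2.96, and the next largest fall, that of pat-10, was -0.26. This list shares no gene with the 9 filament genes, but pat-10, tnt-2, unc-89 and unc-120 were also counted in the partner lists above. Over 9 epidermis markers the mean level was 9.18 to 9.30 in hc1, 9.44 to 9.66 in hc24 and 10.3 to 10.5 in wild type. bli-1 was at background in every array, and the tested members of this list moved both ways. 6 fell and 1 rose in hc1, and 5 fell and 2 rose in hc24, where the collagen genes col-19 (0.98) and col-93 (0.75) rose on the log2 scale while dpy-7 (-4.36) and wrt-2 (-3.19) fell. Over 6 neuronal markers the mean level was 8.29 to 8.39 in hc1, 8.37 to 8.39 in hc24 and 8.89 to 9.24 in wild type. The neuronal markers unc-13, snt-1, rgef-1 and unc-31 were at background in every array. Of the 6 tested, 5 fell and 0 rose in hc1, and 6 fell and 0 rose in hc24. In hc24 unc-64 (-1.91) and rab-3 (-1.08) fell most on the log2 scale, and the median change was -0.32. Over 10 intestine markers the mean level was 12.11 to 12.20 in hc1, 12.10 to 12.22 in hc24 and 12.29 to 12.63 in wild type. Over 5 pharyngeal muscle markers it was 5.79 to 6.24 in hc1, 5.94 to 6.26 in hc24 and 7.20 to 7.44 in wild type. The pharyngeal markers tni-4, tnt-4, tnc-2 and tbx-2 were also counted in the partner lists above. For 5 embryonic markers the mean level was 8.82 to 8.94 in hc1, 8.48 to 8.57 in hc24 and 5.48 to 5.63 in wild type. The embryonic markers end-3, med-1 and sdz-1 were at background in every array. For 10 germ line markers the mean level was 13.09 to 13.15 in hc1, 12.91 to 13.04 in hc24 and 12.58 to 12.82 in wild type. These lists were mixed too, and all marker counts are on the deposited scale. Over all tested probe sets 25.9% were called lower and 43.3% higher in hc1. In hc24 these shares were 21.7% and 37.7%. The share of higher calls over all probe sets depended on scaling, as given above. Of the embryonic markers 4 rose and 1 fell in hc1, and 3 rose and 1 fell in hc24. Germ line markers gave 8 rises and 1 fall in hc1, and 6 rises and 0 falls in hc24. Intestine markers gave 1 rise and 5 falls in hc1, and 0 rises and 6 falls in hc24. Of the sperm markers, given above, gsp-3, gsp-4 and spe-9 were at background in every array. So was ceh-18 of the gonad sheath and spermatheca list. The 6 gonad sheath and spermatheca markers, 2 of which are the troponin genes tni-1 and tnt-3, gave 6.25 to 6.41 in hc1, 6.39 to 6.62 in hc24 and 7.65 to 7.93 in wild type. Their part in the changes of the muscle filament genes was not tested.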

How the data were processed

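Each of 12 whole-worm RNA samples was put on 1 Affymetrix C. elegans array, with 100 ng of RNA labelled per array, per the labels' protocols. The authors deposited 1 log2 value per probe set and array, made with Affymetrix Expression Console and GCRMA per the submitters' processing notes. Their versions are unknown here. Of the 22548 probe sets left without 77 controls, 20810 had 1 gene symbol in the platform annotation, 843 several and 895 none. Chromosomes and transcript counts came from the RefSeq table of assembly WBcel235, in which all 9 genes matched. No coordinates are given, since the build behind the annotation is unknown here.

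limma 3.58.1 (R 4.3.3) fitted 1 mean per group over the 12 arrays, with Benjamini-Hochberg adjustment over the 11833 tested probe sets within each contrast. All tests are two-sided. A gene is given by its brightest probe set with 1 symbol. Differences between a pair of genes within arrays were tested by exact permutation over 70 assignments, with adjustment over 12 tests. The fit was tested on simulated data. For arrays, their number limits the precision. The genes, lists and tests were chosen with earlier results of these data known. The rule for naming genes took, from each list, up to 2 rising and 2 falling per comparison with the smallest adjusted p. Those of the 5 lists of muscle and myosin partners are named, and marker lists are mostly given by their levels. The 3 genes with the nearest profiles are named for each tested gene. The list names tnt-1, tni-2, tmd-1, daf-21, mlc-7, hum-9, med-2 and sth-1 were not matched to a probe set. Replicate numbers in the titles gave no sign of paired samples: deviations from group means correlated at -0.0748 to 0.0825 over 7 pairs with the same number. Over 41 other pairs the range was -0.24 to 0.23. A shared day or preparation was not tested further, and these correlations cannot show its absence. The alternatives were scaling, filters, probe set summary, array weights, a variance trend, a replicate block and leaving out each array.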

Additional observations from a re-analysis of the deposited data

Results flagged for a closer look

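For 4 of the 57 sets of 4 arrays examined (19 probe sets in 3 groups), 1 array stood apart from the other 3 by Dixon's criterion, where chance alone marks about 1 in 20. hc1 replicate 2 was high for mlc-1, at 11.53 against 11.29 to 11.30 in the other hc1 arrays. hc24 replicate 5 was high for the probe set shared by mlc-1 and C36E6.11, at 10.11 against 9.76 to 9.77. hc24 replicate 2 was high for 2 probe sets of unc-15, at 13.91 against 13.78 to 13.80 and at 10.60 against 10.36 to 10.38.

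The alleles differed from each other for 7 of the 8 tested genes, by the limma contrast of hc1 minus hc24. The log2 differences were -1.30 for unc-54, -0.86 for myo-3, -1.11 for mlc-1, -0.40 for mlc-2, -0.78 for mlc-3, -0.88 for unc-15 and -0.70 for lev-11. Each was called, with the highest limma adjusted p at 0.00254, for mlc-2. In each of the 7 the 4 hc1 arrays lay below the 4 hc24 arrays. Over all tested probe sets 30.7% were called in this contrast, 12.2% as lower, and 12.9% were lower without overlap.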

How the results depend on the processing

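Under 22 alternatives the count of filament genes called was 7 in hc1 against wild type and 7 in hc1 against hc24 each time, and 3 to 5 in hc24 against wild type. In hc24 the direction turned with scaling: 1 higher and 3 lower on the deposited scale, 3 higher and 0 lower with median centring, and 1 higher and 4 lower with cyclic loess. With a replicate block the counts were 7, 4 and 7 for hc1 against wild type, hc24 against wild type and hc1 against hc24, and unc-54 still rose in hc24, by 0.60 (limma adjusted p = 0.00407). The block moved the mean difference unc-54 minus unc-15 in hc24 against wild type to 0.83, and that of myo-2 minus myo-1, at background, to 0.11, each over 2 shared numbers and with no test. Leaving out an array leaves 35 assignments, too few for the exact test to pass 0.05, so only values are given. unc-54 minus myo-3 then ranged over 0.62 to 0.72 in hc1 and 0.97 to 1.20 in hc24 against wild type, and over -0.53 to -0.30 in hc1 against hc24. unc-54 minus unc-15 ranged over 0.46 to 0.61 in hc24 against wild type and -0.50 to -0.36 in hc1 against hc24. mlc-3 minus mlc-2 ranged over -0.48 to -0.40 in hc1 against wild type and -0.42 to -0.33 in hc1 against hc24. Without the filter 12514 probe sets were called in hc1 against wild type, beside 8194, as more were tested. Scaling moved some lists. With median centring 9 nonmuscle myosin genes were called in hc1 (5 higher, 4 lower), beside 5, and 8 in hc24 (5 higher, 3 lower), beside 4. With cyclic loess 8 were called in hc1, all lower. Centring left 2 of the thick filament partners called in hc24, beside 4, and cyclic loess called 14 thin filament entries in hc24, beside 9. Signal under log2 4 limits myo-2, where no change could be measured.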
